A study of Mus musculus with 2 samples.

Results

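The platelet-derived growth factor (PDGF) family was examined in mouse embryonic fibroblasts cultured with or without fibroblast growth factor 2 (Fgf2). The family was taken as every probe whose platform gene symbol was one of 7 names: the receptor genes Pdgfra, Pdgfrb and Pdgfrl and the ligand genes Pdgfa, Pdgfb, Pdgfc and Pdgfd. It comprised 9 probes of the 25697 on the array, 4 for receptors and 5 for ligands, and 7 of 16593 named genes. The family was chosen from earlier results of these data, namely the differences of Pdgfra and Pdgfrb between the arrays, so its differences are given as descriptions, with no test.

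Total RNA came from a culture labelled with the agent Fgf2 and a culture labelled with no agent, both of mouse embryonic fibroblasts labelled male. Each was measured on 1 Illumina bead array, so no value has a replicate. Dose, duration, strain and embryonic age are not given in the labels, and pooling of embryos is not stated. Titles and agents name 1 culture as treated, but the series' design text has Fgf2 absent from both, and every direction below rests on the agent labels. At a detection p-value below 0.01, 39.9% of probes were detected on the Fgf2 array and 41.1% on the array without Fgf2. Estimated background was 128.4 and 127.9 signal units on the Fgf2 array and the array without Fgf2, with an SD of 14.5 on each. The fibroblast markers Vim, Thy1, Col1a1, Col1a2 and Prrx1 were detected on both arrays. Both probes of Xist, a transcript of the inactive X chromosome, were also detected on both arrays, which is not usual for cells of male embryos alone. Their signals were 584.1 and 288.9 with Fgf2, and 476.6 and 269.2 without Fgf2. Of the Y-linked genes, Eif2s3y had a detected signal of 496.0 with Fgf2 and 575.1 without it, and Uty one of 176.1 with Fgf2 and 204.0 without it.

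PDGFs are secreted dimers that drive the division, migration and survival of mesenchymal cells. The A and C chains act mainly on the alpha receptor (Pdgfra), the B chain on both the alpha and the beta receptor (Pdgfrb), and the D chain mainly on the beta receptor. Both receptors are tyrosine kinases that dimerise when ligand binds and then recruit adaptor proteins to phosphorylated tyrosines. In connective tissue, Pdgfra marks many fibroblasts and mesenchymal progenitors, and Pdgfrb marks fibroblasts, pericytes and smooth muscle cells. Pdgfrl encodes a receptor-like protein that has no kinase domain.

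The 2 kinase receptors lay on opposite sides with Fgf2, and the detected ligands differed little. Pdgfra was 2.56-fold higher with Fgf2, Pdgfrb was 3.48-fold lower and Pdgfrl was 2.31-fold lower. The detected ligands Pdgfa and Pdgfc were 1.26-fold and 1.09-fold lower, while Pdgfb and Pdgfd were below detection on both arrays. Thus 3 of 3 receptor genes and 0 of 2 detected ligand genes were at least 2-fold apart. Without background correction only Pdgfra among the receptors was, at a log2 difference of 1.29, with Pdgfrb at -0.98 and Pdgfrl at -0.55. Over all genes, 6898 passed detection on the 2 arrays, and with Fgf2 124 of them (1.8%) were higher by 2-fold or more, 174 (2.52%) were lower by as much, and 298 (4.32%) were one or the other. Since the members were chosen with these differences in view, nothing is read from the 2 shares side by side.

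The upstream sequence of 3 detected members is shown because a receptor and the ligand chains that bind it can be set side by side there. RefSeq promoter windows on the GRCm38.p6 build were read for 4 of the 7 genes. Those of the 3 among them detected on both arrays are given as the 250 bases before the annotated start. The upstream sequence of Pdgfrb is not reported here. The windows are chr5:75152001-75152250 on the plus strand for Pdgfra, chr5:138994945-138995194 on the minus strand for Pdgfa (the more upstream of its windows) and chr3:81036166-81036415 on the plus strand for Pdgfc. Capitals mark every match to the motifs searched.
Pdgfra: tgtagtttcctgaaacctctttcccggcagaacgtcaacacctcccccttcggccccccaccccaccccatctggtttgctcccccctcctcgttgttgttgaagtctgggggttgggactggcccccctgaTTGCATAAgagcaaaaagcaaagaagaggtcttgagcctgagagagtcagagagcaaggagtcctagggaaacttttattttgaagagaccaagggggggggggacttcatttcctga
Pdgfa: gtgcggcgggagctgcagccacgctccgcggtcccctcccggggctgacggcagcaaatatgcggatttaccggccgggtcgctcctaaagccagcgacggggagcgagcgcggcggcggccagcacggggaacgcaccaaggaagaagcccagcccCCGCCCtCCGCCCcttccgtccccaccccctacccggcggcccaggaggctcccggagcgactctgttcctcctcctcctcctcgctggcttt
Pdgfc: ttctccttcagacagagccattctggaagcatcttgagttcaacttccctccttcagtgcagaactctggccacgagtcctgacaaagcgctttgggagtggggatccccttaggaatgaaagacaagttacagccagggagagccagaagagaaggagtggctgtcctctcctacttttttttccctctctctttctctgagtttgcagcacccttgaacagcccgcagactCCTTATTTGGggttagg

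The search covered both strands. The site of AP-1, the Fos and Jun dimer, was searched as TGANTCA. The GC box of Sp1 and its relatives was searched as GGGCGG, which can overlap the site of EGR factors, searched as GCGNGGGCG. The site of ETS factors was searched as CCGGAA, and that of C/EBP factors as TTGCNNAA. The box bound by NF-Y was searched as CCAAT, the box near many start sites that TBP binds as TATAAA, and the site of serum response factor as the CArG box. The Pdgfra window held 1 C/EBP match, starting 118 bases before the start site, and no match to the other motifs. The Pdgfa window held 2 GC box matches, starting 93 and 86 bases before it. The Pdgfc window held 1 CArG box match, starting 17 bases before it. Among 32851 promoter windows of the same length, 9.56% held a C/EBP match, 32.74% a GC box and 1.47% a CArG box. GC content was 54.4% for Pdgfra, 72.4% for Pdgfa and 50.8% for Pdgfc, against a median of 52.4% over all windows. A match describes letters only, and binding was not measured.

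**Figure D1:**
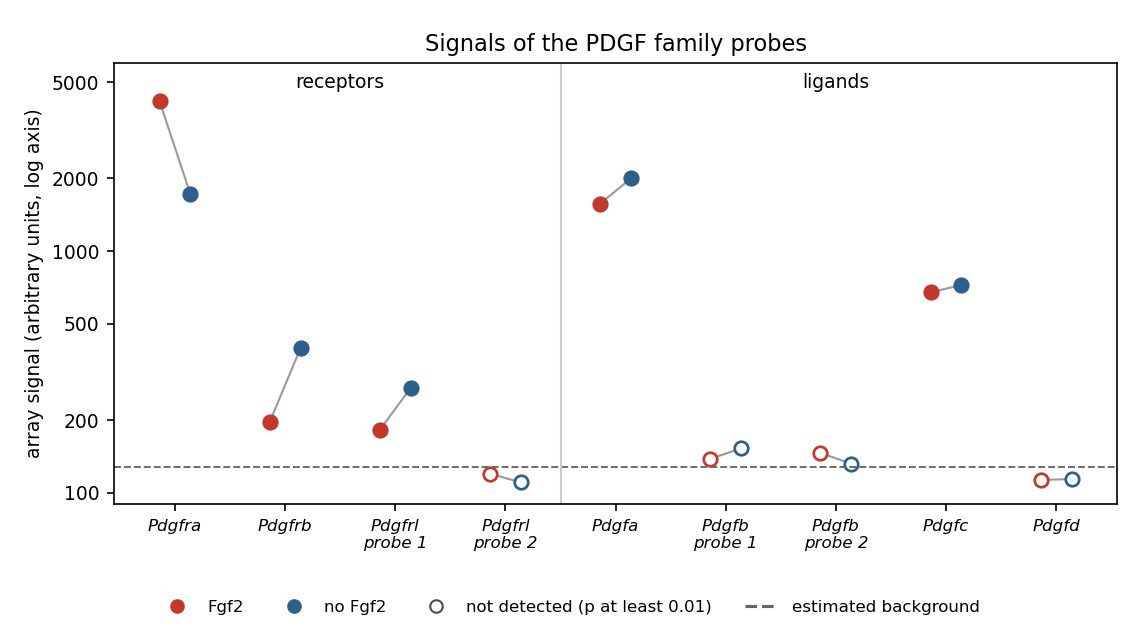
Array signal in arbitrary units on a log axis for each of the 9 PDGF family probes, with the Fgf2 array (red) left of the array without Fgf2 (blue). Open points were not detected (detection p of at least 0.01), and the dashed line is the estimated background. The single Pdgfra probe is higher with Fgf2, Pdgfrb and the detected Pdgfrl probe are lower and nearer the background, and Pdgfa and Pdgfc lie close together on both arrays.

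Pdgfra, the alpha receptor, had a signal of 4165.4 with Fgf2 and 1717.2 without Fgf2, and its detection p was 0 on each array. Its background-corrected, quantile-normalised level was 11.99 with Fgf2 and 10.63 without it on the log2 scale, a difference of 1.36. Different probes of one gene at high level had differences with a pooled SD of 0.16 (513 genes, 1214 probes), a measure of error on these arrays that leaves out variation among cultures. The gap is more than that SD, but Pdgfra has a single probe, so no further probe checks it. It ranked 46th among the 3718 genes above 0. Of 689 other genes in its decile of mean level, 4 had a difference at least as high.

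Pdgfrb, the beta receptor, had a signal of 196.5 with Fgf2 and 397.5 without it, both with a detection p of 0. Its normalised level was 6.37 with Fgf2 and 8.17 without Fgf2, a log2 difference of -1.80. With Fgf2 this signal stood 68.1 units above background, or 4.69 background SDs, against 269.6 units and 18.58 SDs without it. The pooled SD between probes at low level was 0.26 (461 genes, 1045 probes), and Pdgfrb also has a single probe. It ranked 46th among the 3168 genes below 0, and 6 of 689 other genes in its level decile had a difference at least as low.

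The size of the Pdgfrb difference depended on how background was treated. The signals themselves were 2.02-fold apart, and without background correction the normalised levels were 1.97-fold apart. Subtracting the mean background gave 3.96-fold, which would be 3.09-fold to 5.31-fold if the background under this probe were 1 SD off in opposite directions on the 2 arrays. The same calculation for Pdgfra gave 2.54-fold, with a range of 2.51-fold to 2.57-fold. These ranges cover scatter of the background only.

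Pdgfrl, the receptor-like gene, had 2 probes that did not give the same picture. The detected probe had a signal of 182.4 with Fgf2 and 272.2 without it, a log2 difference of -1.21. With Fgf2 its detection p was 0.0050, just inside the threshold, and it lay 3.72 background SDs above background. Its other probe gave 120.2 with Fgf2 and 110.5 without Fgf2, below the mean background and undetected on both arrays. Without background correction the detected probe differed by 1.46-fold, below 2-fold. Subtracting the mean background gave 2.67-fold, with a range of 1.89-fold to 4.02-fold from background scatter of 1 SD.

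Taking the difference of Pdgfra minus that of Pdgfrb contrasts the 2 kinase receptors without setting the level of one probe against another. This contrast was 3.15 on the log2 scale, so the ratio of alpha to beta receptor level, after background correction and normalisation, was 8.90-fold higher with Fgf2. Without background correction the contrast was 2.27, or 4.81-fold. A spread of 0.31 would follow for such a contrast from the pooled SD of 0.22 over all genes with several probes. Pdgfra minus Pdgfrl was 2.56, and Pdgfrb minus Pdgfrl was -0.59.

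Among the ligands, Pdgfa, which encodes the A chain, had a signal of 1573.5 with Fgf2 and 1999.8 without it. Its log2 difference of -0.33 was above the pooled SD of 0.16 between probes at high level, and 35.7% of all detected genes lay as far from 0 or farther. Pdgfc, which encodes the C chain, had a signal of 676.0 with Fgf2 and 724.3 without Fgf2. Its log2 difference of -0.13 was within the pooled SD of 0.22 for probes at middle level. Both detected ligands were thus within 2-fold, and Pdgfc within the spread between probes.

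Pdgfb, the B chain, had 2 probes, both undetected. Their signals were 138.3 and 146.3 with Fgf2, and 153.0 and 132.1 without it, so they lay in opposite order. Pdgfd, the D chain, had a signal of 113.2 with Fgf2 and 114.1 without Fgf2, below the mean background on both arrays. No fold is given for these 2 genes, whose transcripts were not detectable at this signal. Pdgfra minus Pdgfa was 1.68 and Pdgfra minus Pdgfc 1.48 on the log2 scale, while Pdgfrb minus Pdgfa was -1.47 and Pdgfrb minus Pdgfc -1.67. Each of these gaps between a kinase receptor and a detected ligand was over 2-fold. Without background correction the gaps of Pdgfra stayed over 2-fold, at 1.59 and 1.39, while those of Pdgfrb were under it, at -0.67 and -0.87.

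**Figure D2:**
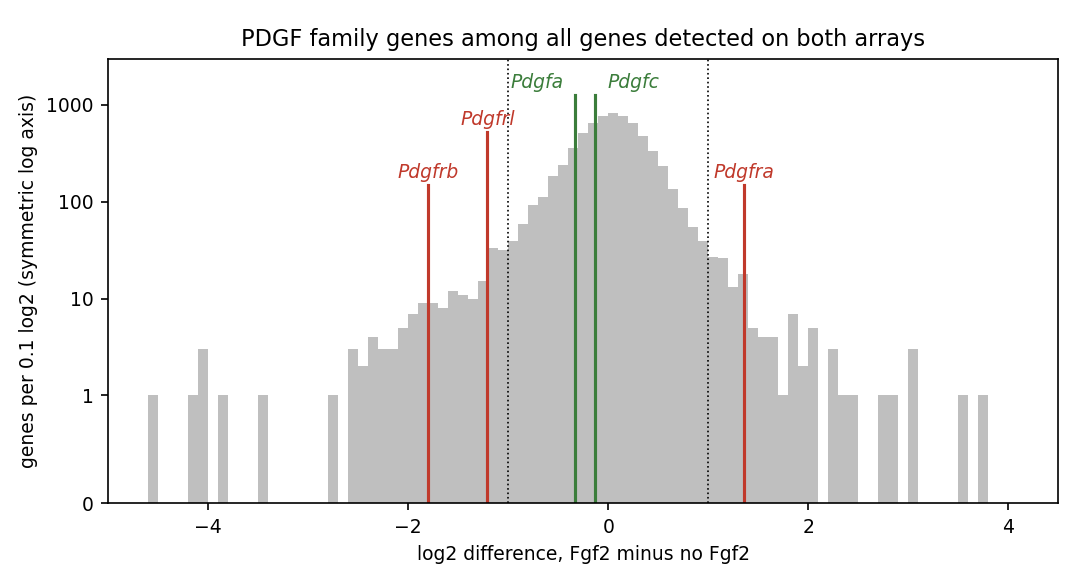
Histogram of log2 differences, Fgf2 minus no Fgf2, for the 6898 genes detected on both arrays (number of genes per bin of 0.1, symmetric log axis). Lines mark the receptors (red) and ligands (green), and dotted lines mark 2-fold. Pdgfra lies past 2-fold on the higher side, Pdgfrb and Pdgfrl past it on the lower side, and Pdgfa and Pdgfc near the middle.

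**Figure D3:**
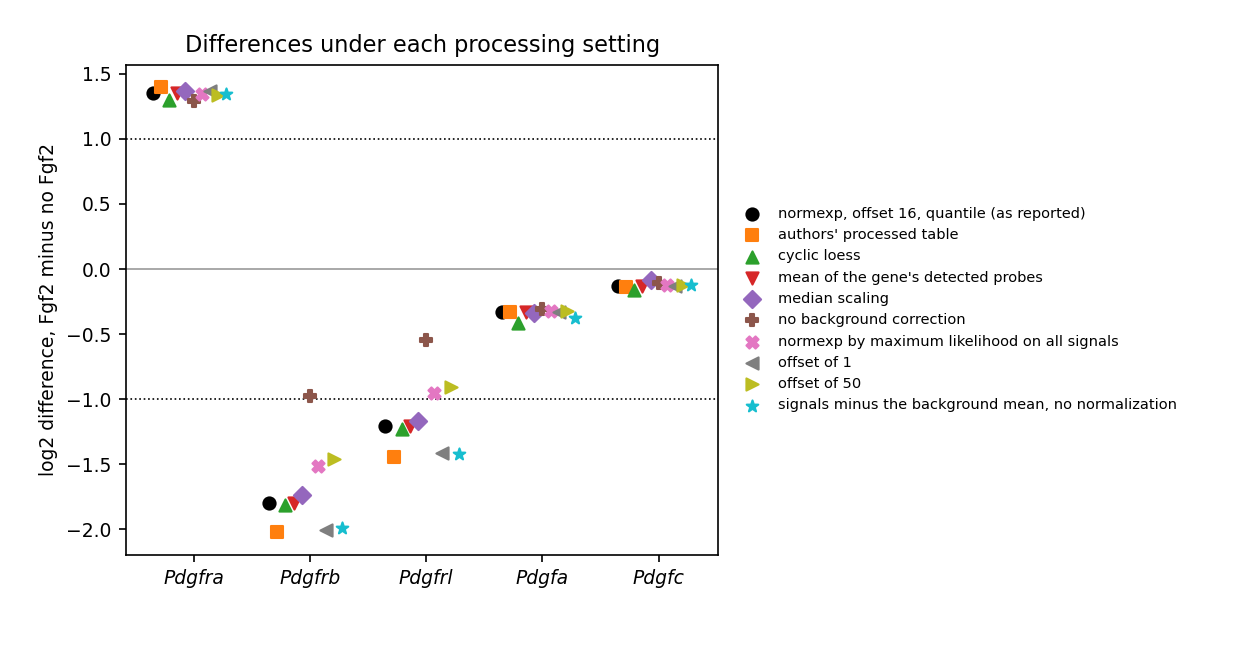
Log2 difference, Fgf2 minus no Fgf2, of the 5 family genes detected on both arrays under the reported setting (black circles) and 9 others (coloured symbols). Dotted lines mark 2-fold. Pdgfra stays between 1.29 and 1.40 in the others, Pdgfrb spreads from -2.02 to -0.98 and Pdgfrl from -1.45 to -0.55. The mean of a gene's detected probes repeats the reported value, since each gene has a single detected probe.

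Differences of the same size as the receptors were found in other genes, named here by the absolute gap between log2 differences over the 2 arrays. Nearest to Pdgfra were Ccnd1, the cyclin D1 gene, with a gap of 0.0001, Hmga2, an architectural chromatin protein gene, with 0.0044, and Plpp3, a lipid phosphatase gene, with 0.0123. Nearest to Pdgfrb were Bmp4, a bone morphogenetic protein gene, with a gap of 0.0021, Slc40a1, the iron exporter ferroportin gene, with 0.0048, and Fbxo32, a ubiquitin ligase subunit gene, with 0.011. With 2 arrays many genes share any one difference, so these describe size alone.

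Both kinase receptors lie beside other genes whose values were read in the same way. Of the 3 named protein-coding genes on each side of Pdgfra in RefSeq, Chic2 and Srd5a3 were detected on both arrays and were 1.11-fold and 1.19-fold lower with Fgf2. Lnx1, Gsx2 and Kdr were detected on neither array. Of the 3 on each side of Pdgfrb, Hmgxb3 was detected on both and was 1.22-fold lower, while Camk2a, Slc6a7, Cdx1 and Slc26a2 were detected on neither. Kit and Csf1r, the nearest receptor relatives of Pdgfra and Pdgfrb on their chromosomes, were not analysed here. Every detected neighbour was thus within 2-fold, a range that only 4.32% of all genes lay outside. These few neighbours therefore do not set either locus apart from other genes.

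The kinase receptors were also set among all receptor tyrosine kinases, a list of 58 genes added after the data had been seen. Of 51 with a named probe, 14 were detected on both arrays, with a median log2 difference of -0.32 against 0.03 over all genes detected on both arrays. Of the 14, Pdgfra was at least 2-fold higher and 2 genes, Pdgfrb and Epha3, at least 2-fold lower, against 1.8% and 2.52% of all genes. Without background correction Pdgfrb was 1.97-fold lower. Pdgfra had the highest difference of these 14 and Pdgfrb the lowest. The family was chosen for these 2 differences, so their places only describe. For the same reason nothing is read from counts that hold them beside the shares of all genes. Apart from Pdgfra and Pdgfrb, only Epha3 of the 14 was at least 2-fold apart. The next lowest was Epha3, an ephrin receptor gene, whose signal was 286.1 with Fgf2 and 505.2 without it, 2.29-fold lower with Fgf2. The signals of this Epha3 probe were themselves under 2-fold apart. Its other 2 probes were lower by less, with log2 differences of -0.81 and -0.73. The next highest were Axl, the Gas6 receptor gene, and Epha2, both 1.25-fold higher. The epidermal growth factor receptor gene Egfr was 1.36-fold lower, with log2 differences from -0.60 to -0.0018 at its 3 other probes, and Igf1r was 1.56-fold lower.

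A further 4 receptor kinase genes were detected on 1 array. Mertk, another Gas6 receptor gene, was detected only with Fgf2, at a signal of 275.3 against 170.4 without it, and was at least 2.77-fold higher. This bound, set against the lowest level that counted as detected without Fgf2, is above the fold of Pdgfra on the background-corrected scale. The signals themselves were less far apart for Mertk than for Pdgfra. Without Fgf2 the detection p of Mertk was 0.010025, just outside the threshold. Ddr2, Epha1 and Fgfr2 were detected only without Fgf2, with bounds of at least 1.44-fold and 1.29-fold lower for Ddr2 and Epha1 and no bound above 1 for Fgfr2. Fgfr1, a receptor for Fgf2, was detected on neither array at this threshold. The detection p of its brighter probe was 0.038 with Fgf2 and 0.014 without it, and its other probe lay farther outside the threshold.

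**Figure D4:**
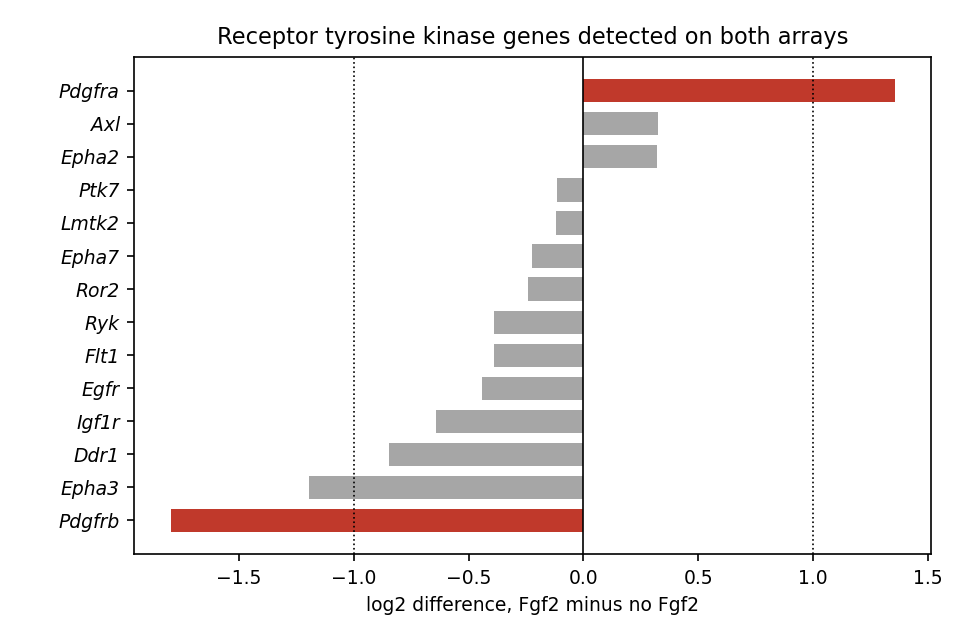
Log2 difference, Fgf2 minus no Fgf2, of the 14 receptor tyrosine kinase genes detected on both arrays, from the highest at the top, with PDGF receptors in red and dotted lines at 2-fold. Pdgfra stands at 1.36 at the top and Pdgfrb at -1.80 at the bottom, and of the other 12 only Epha3 passes 2-fold.

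Where both arrays detected them, genes that carry the PDGF signal inside the cell were within 2-fold, as most detected genes were. Among 35 receptor adaptor and effector genes with a probe, both arrays detected 25, and 0 were at least 2-fold higher and 0 lower, with a median log2 difference of 0.07. Over all genes 4.32% were 2-fold apart and the median was 0.03. At that share few or none of 25 genes would lie past 2-fold, so the count does not set this list apart. The widest differences were those of Pdpk1, a kinase that activates Akt, which was 1.92-fold lower, and Vav3, which was 1.83-fold higher. Another probe of Pdpk1 differed by -0.42 on the log2 scale, and 2 further probes of Vav3, undetected, differed by -0.34 and -0.27. Stat5a, a transcription factor gene, was 1.67-fold higher, but its other probe, undetected, differed by -0.68. Stat3 was 1.48-fold lower, with -0.30 and -0.16 from its other probes. Ptpn11, the phosphatase Shp2 gene, had a signal of 5429.0 with Fgf2 and 5925.3 without it, and Shc1, an adaptor gene, 10644.8 with Fgf2 and 7754.6 without it. Plcg1, the phospholipase C gamma gene, was undetected.

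Of 22 genes of receptor down-regulation, phosphatases and inhibitors with a probe, both arrays detected 13, with 0 at least 2-fold apart, against 4.32% of all genes, and a median of -0.02. At that share so short a list would hold few or none past 2-fold. Socs3, a cytokine signalling inhibitor gene, was 1.78-fold higher with Fgf2. Sh3gl1 and Cav1, genes of endocytosis and caveolae, were 1.45-fold and 1.43-fold lower, and Ptpn12, a tyrosine phosphatase gene, 1.42-fold lower, with -0.71 to -0.045 from its 4 other probes. Spry4, a feedback inhibitor gene, was detected only without Fgf2 and was at least 1.17-fold lower.

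Genes that process or bind PDGF gave 2 of 11 detected members at least 2-fold lower and 0 higher, against 2.52% and 1.8% of all genes, with a median of -0.23. Sparc, a matrix protein known to bind PDGF, had a signal of 8520.0 with Fgf2 and 19072.4 without it, and was 2.24-fold lower. Its other probe was lower by more, with a log2 difference of -1.51. Itgb1, the beta 1 integrin gene, was 2.23-fold lower, with -0.91 from its other probe. Its signals, 369.1 with Fgf2 and 673.8 without it, were themselves under 2-fold apart. Nrp1, a co-receptor gene, was 1.41-fold lower. Cd44, a hyaluronan receptor gene, was 1.45-fold higher, and Cspg4, the NG2 proteoglycan gene, was detected only without Fgf2 and was at least 1.35-fold lower. The protease genes Furin and Plau, whose products act on PDGF chains, were 1.06-fold and 1.11-fold higher, and Plat, whose product activates PDGF-CC, was undetected.

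Of 13 relatives among the VEGF ligands, the class III and V receptors and their ligands, 6 were detected on both arrays and 0 were 2-fold apart, against 4.32% of all genes, with a median of -0.37. The 6 lay on both sides of 0, and at that share so short a list would hold few or none past 2-fold. The vascular growth factor genes Vegfb and Vegfd were 1.70-fold and 1.60-fold higher with Fgf2, and Vegfc and Vegfa were 1.42-fold and 1.28-fold lower. Csf1, the macrophage growth factor gene, was 1.89-fold lower, and the receptor gene Flt1 was 1.31-fold lower.

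Early response genes that serum or PDGF is known to induce in fibroblasts had a median of -0.19, with 15 of 17 detected members below 0, 2 at least 2-fold lower and 0 at least 2-fold higher. Over all genes 45.9% were below 0, 2.52% at least 2-fold lower and 1.8% at least 2-fold higher. Several of the 15 lay close to 0, such as Ccl2 at -0.023, Odc1 at -0.037 and Ier3 at -0.07. Egr2, a zinc finger factor gene, was 4.66-fold lower, and Ptgs2, the cyclooxygenase 2 gene, 2.22-fold lower, with its other probe undetected. The signals of Ptgs2, 228.7 with Fgf2 and 360.5 without it, were themselves under 2-fold apart. Ccn1, a matricellular protein gene, was 1.84-fold lower, and 2 further probes of it gave log2 differences of -0.98 and -1.30, the second past 2-fold. Jun and Fosl1, AP-1 subunit genes, were the members above 0, at 1.82-fold and 1.73-fold higher. Maff was detected only without Fgf2 and was at least 1.43-fold lower.

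**Figure D5:**
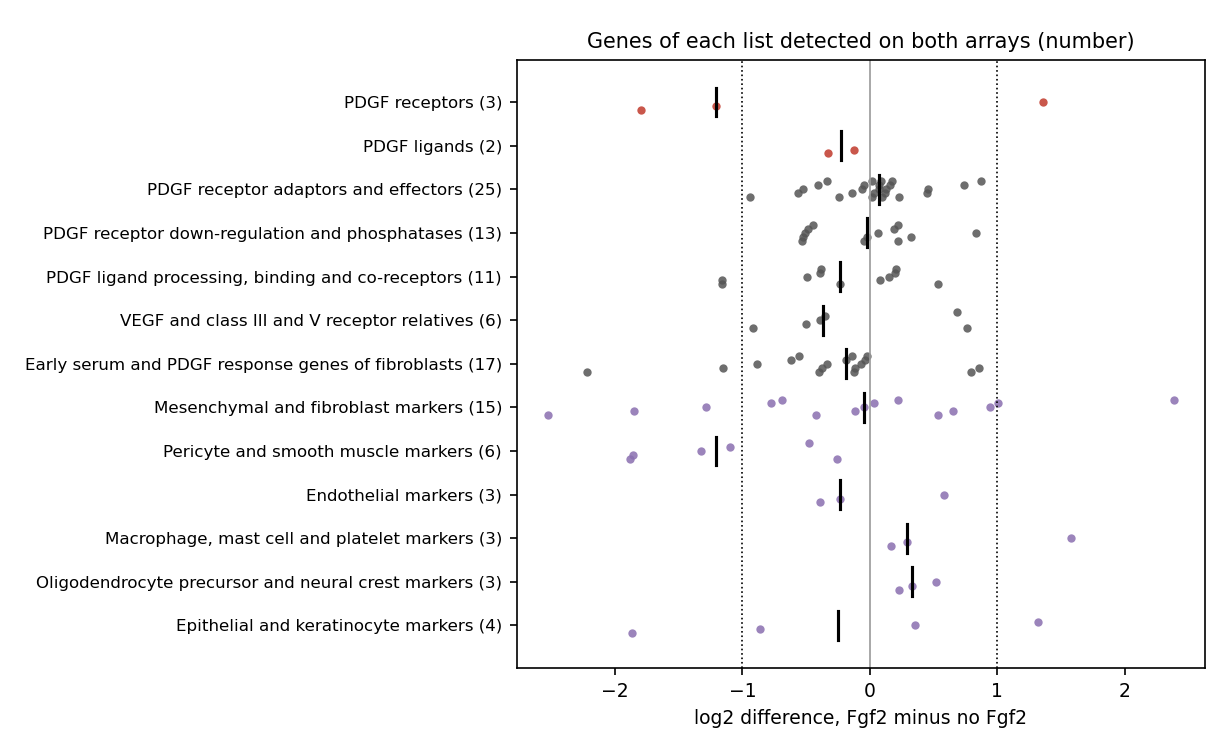
Log2 difference, Fgf2 minus no Fgf2, of each gene detected on both arrays in the PDGF family (red), the pathway lists (grey) and the cell type marker lists (purple), with the number of genes in brackets, black bars at medians and dotted lines at 2-fold. The adaptor and down-regulation lists lie within 2-fold, and the pericyte and smooth muscle list lies below 0 throughout.

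Markers of cell types in which these receptors are known were read beside them, and in bulk RNA fewer cells of a type cannot be told apart from less RNA per cell. Pericyte and smooth muscle markers, a group to which Pdgfrb is usually counted, were below 0 where both arrays detected them. Of 17 on the array, 6 were detected on both, 0 were above 0, 4 were at least 2-fold lower with Fgf2, against 2.52% of all genes, and the median was -1.21. Lmod1, Tagln and Des, genes of contractile and intermediate filaments, were 3.69-fold, 3.62-fold and 2.14-fold lower. Mcam, a pericyte adhesion gene, was 2.50-fold lower, and its 3 probes differed by between -1.42 and -1.27. Smtn, the smoothelin gene, was 1.39-fold lower, with -0.73 from its other detected probe. Acta2, smooth muscle alpha actin, was 1.19-fold lower by its brightest probe, at 32941.9 with Fgf2 and 39120.9 without it, while its 3 other probes differed by -2.00 to -1.77. Myh11, smooth muscle myosin, was detected only without Fgf2 and was at least 1.57-fold lower, while Anpep was detected only with Fgf2 and was at least 1.37-fold higher. Rgs5, Kcnj8, Abcc9, Notch3 and Myocd were undetected. Signals above background summed to 34714.0 with Fgf2 and 43837.0 without Fgf2 over the list, undetected genes included, most of it from Acta2. Without Acta2 the sums were 1900.5 with Fgf2 and 4844.0 without it, and their part in the Pdgfrb difference was not tested.

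Fibroblast and mesenchymal markers, a group to which Pdgfra is usually counted, lay on both sides of 0. Of 15 detected on both arrays, 2 were 2-fold or more higher and 3 lower, against 1.8% and 2.52% of all genes, with a median of -0.05. Lum, a leucine-rich proteoglycan gene, was 5.23-fold higher and Pdpn, the podoplanin gene, 2.01-fold higher, while Col1a1, Col1a2 and Col5a1 were 5.76-fold, 3.61-fold and 2.44-fold lower. Cd34 was detected only with Fgf2 and was at least 1.12-fold higher. The summed signal above background was 69000.5 with Fgf2 and 82654.1 without it, and its part in the Pdgfra difference was not tested.

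Markers of other cells were mostly undetected. The sums given here are of signal above background over every gene of a list on the array. Undetected genes are included, and signals below background add nothing, so the sums are not those of the detected markers alone. Of 10 oligodendrocyte precursor and neural crest markers, a lineage in which Pdgfra is also known, Cnp, Nes and Mbp were detected on both arrays. Cspg4 was detected only without Fgf2, and Olig1 and Olig2 on neither array. The sums of this list were 762.6 with Fgf2 and 630.4 without it. Of 15 endothelial markers, Egfl7, Flt1 and Eng were detected on both arrays and Esam only with Fgf2, and Pecam1 and Cdh5 on neither, with sums of 1123.3 with Fgf2 and 1043.4 without it. Of 17 macrophage, mast cell and platelet markers, Lyz2, Ppbp and Cd14 were detected on both and Ptprc and Adgre1 on neither, with sums of 1166.7 with Fgf2 and 807.7 without Fgf2. Cd14 was 2.99-fold higher, at signals of 304.3 with Fgf2 and 176.2 without it. Pf4 and Itga2b, platelet genes, were detected only with Fgf2, at least 3.16-fold and 1.28-fold higher. Their signals were 298.0 and 188.0 with Fgf2, and 144.1 and 162.7 without it. Of 12 epithelial markers, Cdh3, Krt8, Krt18 and Krt19 were detected on both and Cdh1 on neither, with sums of 793.6 with Fgf2 and 1401.8 without it. Krt19 was 2.50-fold higher and Cdh3 3.65-fold lower (-1.38 by its other detected probe). Krt14 was detected only without Fgf2 and was at least 5.86-fold lower, at signals of 157.9 with Fgf2 and 482.8 without it. All of these folds and bounds are on the background-corrected scale, and the signals themselves were less far apart. The part of these cells in the PDGF family values was not tested.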

How the data were processed

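Per the file headers, the authors deposited 1 signal and 1 detection p-value per probe and array. The deposited signals are linear intensities, which still hold background. Each detection column fell with the signal column before it (rank correlation -0.975 on the Fgf2 array and -0.981 without Fgf2). The authors also deposited processed values, which lie on a log2 scale, share a median of 4.30 and rank probes as the signals do (correlation 1). How the authors corrected their background is not stated. Per the submitters' processing notes the tools were BeadStudio 3.2, lumi and RMA, without their roles. Per the labels, 300 ng of RNA was amplified and biotinylated.

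Background was corrected by normexp (limma 3.58.1, R 4.3.3), with its parameters inferred from detection p-values and an offset of 16, then quantile normalised and put on the log2 scale. Detected means a detection p below 0.01. The platform annotation named 23978 probes, and 23962 symbols were checked by Entrez number against RefSeq. The probe with the highest mean level represents a gene. A gene detected on 1 array has a bound against the dimmest detected level of the other array (5.99 with Fgf2 and 5.87 without it) or its own level if higher. With 1 array per group no test was possible, and precision is limited by the number of arrays. The steps were run on simulated arrays with a normally distributed background, as the correction assumes. Fold changes were set there only for probes brighter than the mean levels of Pdgfrb and Pdgfrl. The simulation thus did not test the range near background, and no result rests on it. Python 3.11.15, pandas 2.3.3, numpy 2.4.6 and matplotlib 3.10.9 were used.

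The members and all lists were chosen with earlier results of these data known. Named genes are all member probes, up to 4 per list with the widest difference and 2 with the greatest bound, and the 3 genes nearest each kinase receptor. Other genes, Acta2, Smtn, Pdpn, Fosl1, the neighbours and the receptor kinases among them, were chosen after values had been seen. Alternatives were other background corrections, offsets, normalisations and detection filters, the authors' processed table, the mean of a gene's probes, and thresholds of 1.5-fold and 3-fold. The subtraction of mean background was added after the data had been seen.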

Additional observations from a re-analysis of the deposited data

How the results depend on the processing

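Pdgfra, Pdgfa and Pdgfc moved by less than the spread between probes of one gene under all 9 other settings, and none of the 5 family genes detected on both arrays changed direction under any. Of the 9, the mean of a gene's detected probes could not move these 5 genes, since each has a single detected probe. Without background correction the log2 difference was -0.98 for Pdgfrb, -0.55 for Pdgfrl and 2.27 for Pdgfra minus Pdgfrb. With an offset of 50 these were -1.46, -0.91 and 2.80, and normexp by maximum likelihood gave -1.52 for Pdgfrb and -0.95 for Pdgfrl. Pdgfrb was thus under 2-fold in 1 of 9 settings and Pdgfrl in 3 of 9, each a change of background correction or offset. The cause of the differences themselves was not tested. The authors' processed table gave 1.40 for Pdgfra, -2.02 for Pdgfrb and -1.45 for Pdgfrl. List medians that moved were those of pericyte and smooth muscle markers (-0.94 without background correction and -0.79 at a detection p below 0.05), endothelial (0.085) and epithelial markers (-0.86, each at a detection p below 0.05 and with detection on at least 1 array) and macrophage, mast cell and platelet markers (0.58 with detection on at least 1 array). Genes at least 2-fold higher and lower numbered 53 and 96 without background correction, and 219 and 279 with detection on at least 1 array. At 1.5-fold they were 466 and 500, and at 3-fold 31 and 63. No paired analysis was possible because each group has 1 array. Probes near background limit Pdgfrb, Pdgfrl, Pdgfb and Pdgfd and the bounds of genes detected on 1 array, and the number of arrays limits every result.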
